A study of Mus musculus with 6 samples.

Results

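Regions that carried trimethylated histone H3 lysine 27 (H3K27me3) in both Sox13hi and Sox13lo γδ thymocytes, with trimethylated lysine 4 (H3K4me3) in neither, numbered 966. They were found by merging peaks that share at least 1 bp across the 4 histone peak lists into 37017 regions on chromosomes 1 to 19. A region was kept if it held a peak of both H3K27me3 lists and none of either H3K4me3 list. These H3K27me3-only regions are 2.61% of all regions and 29.5% (95% exact binomial interval 27.9 to 31.1%) of the 3276 regions with H3K27me3 in both populations. Of the other regions with H3K27me3 in both, 1803 held H3K4me3 in both populations as well, 281 in Sox13hi alone and 226 in Sox13lo alone. The regions were thus chosen by measured values, the presence or absence of histone peaks, so their H3K27me3 widths and scores and their distances to H3K4me3 are described without a test.

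H3K27me3 is written by Polycomb repressive complex 2, whose EZH enzymes methylate the histone and whose EED subunit binds the finished mark and so helps it spread along the chromatin. At many promoters of developmental genes the mark coexists with H3K4me3, a combination called bivalent and associated with low, inducible transcription. H3K27me3 without H3K4me3 is typical of stably silenced genes and of the flanks of Polycomb domains, for which the Hox clusters are the textbook example. SOX13 is an HMG-box transcription factor that marks γδ T cell precursors with the potential to make interleukin 17.

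The cells were thymocytes sorted as γδ T cell receptor-positive and CD24-positive from C57BL/6 mice that lack TCRβ and carry 1 Sox13 allele with an ECFP knock-in (genotype TCRbeta KO.Sox13 ECFP KI/+). Sox13hi cells were high for the fluorescent reporter (CFPhi) and Sox13lo cells were low or negative (CFPlo/-), and all groups share the TCRβ deletion and the single knock-in allele. The labels used here give neither the age and sex of the mice nor how many were pooled. Chromatin immunoprecipitation and sequencing (ChIP-seq) gave 1 H3K4me3 and 1 H3K27me3 peak list for each population, and 1 SOX13 list for Sox13hi cells. Fixation was with 1% formaldehyde, and 250000 cells were used for each histone mark and 1000000 for SOX13. Each group had 1 library, so no p-value is given and variation between libraries is not measured.

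The lists are unequal in length. H3K27me3 had 14842 peaks in Sox13hi and 7395 in Sox13lo, H3K4me3 had 20444 and 18471, and SOX13 had 13807. Read numbers were not analysed here, so depth is unknown. Peak scores are the authors' own and served here only to rank peaks within a list. The percentile of a peak is the share of its own list that scored the same or lower, and a region takes the percentile of its best-scoring peak. Because a longer list holds more low-scoring peaks, equal percentiles in the 2 populations are not equal signal. Positions are those of mouse build mm9. Gene positions on that build were not used here, so regions are named by position and what they hold (exons, introns or promoters) was not analysed. For the same reason the labelled cell type was not checked against its marker genes.

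H3K27me3-only regions were short and mostly made of a single peak from each population. Their median width was 500 bp (95% order-statistic interval 500 to 550), with quartiles of 400 and 700 bp and a range from 150 to 2150 bp. Regions with both marks in both populations were wider, with a median of 1300 bp, and so were those with H3K4me3 only in both, at 1100 bp. Regions with H3K27me3 only in 1 population were narrower, with a median of 250 bp for either population. Width spans all merged peaks of a region, so the class rule itself favours wider regions where it requires peaks of more lists. Counted in 1 population at a time, the peaks of H3K27me3-only regions covered 400 bp at the median. Only 78 H3K27me3-only regions (8.07%) exceeded 1000 bp, against 73.0% of the regions with both marks in both. In all, the H3K27me3-only regions covered 0.571 Mb.

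**Figure D1:**
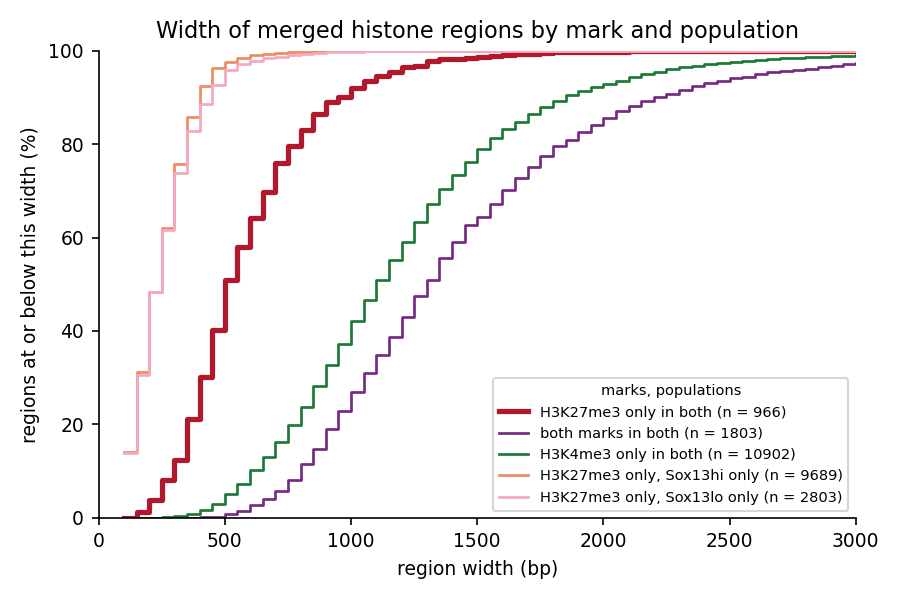
Cumulative share of regions (%) by region width (bp, axis to 3000) for 5 classes of merged region, 1 line per class. The thick line of the 966 H3K27me3-only regions, with a median of 500 bp, lies between the narrow regions of 1 population, with medians of 250 bp, and the wider regions with H3K4me3, with medians of 1100 and 1300 bp. Width spans all merged peaks, so the class rule itself favours wider regions where it requires peaks of more lists.

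The peaks of the populations coincided only in part within these regions. One peak from each list made up 929 regions. A further 18 held 1 Sox13hi and 2 Sox13lo peaks, 15 held 2 and 1, and 4 held 2 of each. The covered width had a median of 400 bp in either population. It was larger in Sox13hi for 478 regions, larger in Sox13lo for 399 and equal for 89. The shared bases were 50% of the covered bases at the median, with quartiles of 30% and 64.8%. The centres of the peaks of the populations lay 100 bp apart at the median and at most 775 bp. In 299 regions (31.0%) the Sox13lo peaks lay inside the Sox13hi peaks, in 235 (24.3%) the reverse held, and in 421 (43.6%) the edges were staggered. Only 11 regions had the same edges in both lists. At the weak end of the rule, 56 regions owed their place to the smallest overlap possible on the files' 50 bp grid.

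The H3K27me3-only regions ranked in the middle to upper part of the lists. In the Sox13hi list the median percentile was 73.6 (71.7 to 74.8), with quartiles of 53.6 and 83.5. In the Sox13lo list it was 51.6 (49.5 to 53.2), with quartiles of 31.5 and 68.5. These percentiles come from lists of different length, so the gap between them cannot be read as a change between the populations, or as its absence. With the lists of each mark limited to the same number of best-scoring peaks, 770 regions met the rule, and their medians were 56.0 and 54.0. Regions with both marks in both populations stood higher in each list, with medians of 91.5 and 82.4. Peaks of regions with H3K27me3 in 1 population only stood lower, with medians of 37.8 in Sox13hi and 27.2 in Sox13lo. The classes differ in the lists they require and in width. Since a region takes its best-scoring peak, these ranks are not independent of the class rule.

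The highest-scoring 10% of a list held 105 of the H3K27me3-only regions (10.9%, 8.98 to 13.0%) in Sox13hi, which is near the share of all peaks there. In Sox13lo it held 27 (2.80%, 1.85 to 4.04%), and 11 regions were in the top 10% of both lists. For regions with both marks in both populations, which were wider, the corresponding shares were 55.8% and 33.7%. Above the middle of both lists lay 434 H3K27me3-only regions (44.9%), and below the middle of both 133 (13.8%). Across the 966 regions the percentiles of the populations were related with a Spearman rho of 0.37, and width and mean percentile with a rho of 0.77. Median percentiles rose with width, from 59.3 and 38.3 up to 500 bp to 91.7 and 83.5 over 1000 bp, Sox13hi first. These are descriptions across regions that share the same libraries.

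**Figure D2:**
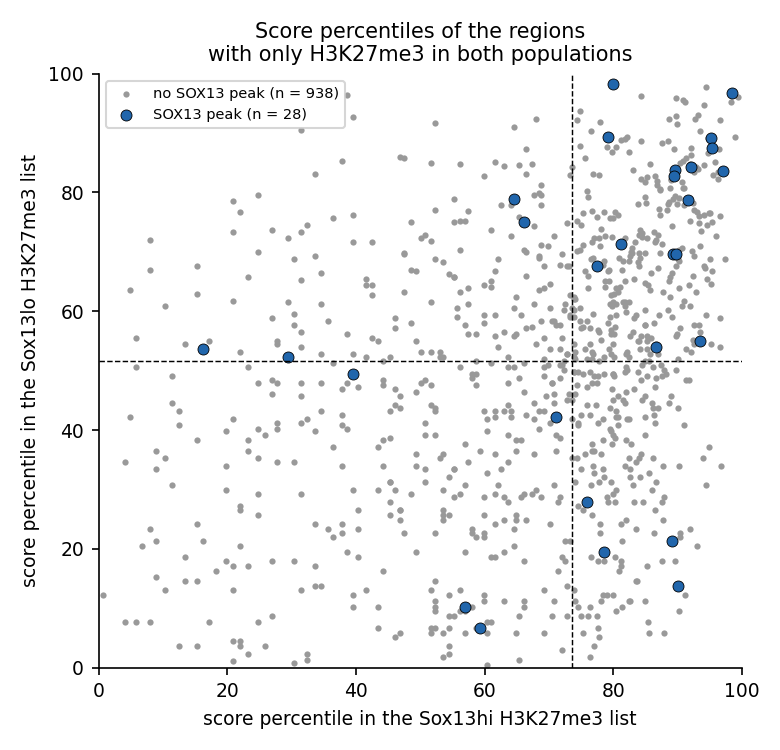
Score percentile of each H3K27me3-only region in the Sox13hi H3K27me3 list (x axis, 0 to 100) and in the Sox13lo list (y axis, 0 to 100), with the medians of 73.6 and 51.6 as dashed lines. Blue points are the 28 regions with a SOX13 peak and grey points the 938 without one, and the blue points, with medians of 84.0 and 69.6, lie mostly in the upper right. Blue and grey points were not matched for width.

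The region with the highest mean percentile was also the widest. It lay at chr5:120888551-120890699, was 2150 bp wide, and scored 197.5 in Sox13hi (percentile 99.5) and 117.25 in Sox13lo (percentile 96.1). The second, at chr10:126964451-126965999, scored 141.5 (98.4) and 124.5 (96.6), and it held a SOX13 peak. The third, at chr15:97833501-97835599, scored 140.25 (98.3) and 108.5 (95.2). It was the only region among the first 10 whose nearest H3K4me3 region had no H3K27me3, at a distance of 9900 bp.

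Among the next 7 regions, 3 lay within 1 kb of H3K4me3 and 4 did not. The regions at chr8:72407901-72409649, chr6:53769851-53771399 and chr9:108726551-108728049 had an H3K4me3 peak at 500, 550 and 200 bp. Those at chr2:74513101-74514099, chr8:123651901-123653399, chr15:100876601-100878199 and chr13:99135551-99136899 had their nearest H3K4me3 peak at 5950, 10200, 4750 and 9400 bp. In Sox13hi these 7 regions had percentiles from 90.8 (chromosome 13) to 99.0 (chr15:100876601-100878199). In Sox13lo the same regions lay between 89.3 (chr15:100876601-100878199) and 97.7 (chr8:72407901-72409649). The remaining 3 of the 5 widest, at chr19:45304651-45306599, chr7:28118851-28120649 and chr8:72407901-72409649, measured 1950, 1800 and 1750 bp.

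Some regions ranked high in one list and low in the other. The largest gap in favour of Sox13hi was at chr2:36057901-36058599, where the score was 50.75 (percentile 87.9) in Sox13hi and 5.5 (5.88) in Sox13lo. There the Sox13hi peak covered 700 bp and the Sox13lo peak 100 bp. The next were chr6:51124401-51125199, with percentiles of 90.2 and 9.48, and chr2:168591301-168591899, with 85.6 and 5.88. In the other direction, chr6:83652301-83652949 scored 4.5 (7.99) in Sox13hi and 42 (72.0) in Sox13lo, where its peak was 650 bp wide against 100 bp. It was followed by chr5:33774551-33775599, with percentiles of 31.4 and 90.5, and chr7:52430251-52430699, with 7.99 and 67.0. In each of these 6 regions the low-ranking peak was 100 or 200 bp wide. The rule counts such a peak as presence of the mark, and without replicates the difference cannot be told apart from variation between libraries.

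Many H3K27me3-only regions lay next to H3K4me3. The nearest peak of either H3K4me3 list was 2400 bp away at the median (1900 to 2700), with quartiles of 550 and 12138 bp. Within 1 kb lay 336 regions (34.8%), over 1 to 10 kb 362 (37.5%), over 10 kb 268 (27.7%), and of these last 43 were over 100 kb away. For regions with H3K27me3 only in Sox13hi or only in Sox13lo the median distances were 19950 and 9150 bp, and 11.7% and 21.2% had H3K4me3 within 1 kb. The H3K4me3 lay within 1 kb on 1 side of 310 H3K27me3-only regions and on both sides of 26. Measured to each list alone, the median was 3650 bp to Sox13hi and 4275 bp to Sox13lo H3K4me3. The distance rests on how regions are built: it was 9800 bp with peaks up to 1 kb apart merged, and 30000 bp with the top 50% of each histone list by score.

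The neighbouring H3K4me3 was usually itself on H3K27me3 chromatin. The region that held the nearest H3K4me3 peak also held an H3K27me3 peak for 605 of the 966 (62.6%). Among all 23559 regions with H3K4me3 that share was 16.5%. The share fell with distance, from 79.2% (74.4 to 83.4%) within 1 kb to 70.2% (65.2 to 74.8%) over 1 to 10 kb and 31.7% (26.2 to 37.7%) beyond 10 kb. The neighbour carried both marks in both populations for 307 regions, H3K4me3 alone in both for 128, H3K4me3 alone in Sox13hi for 150 and H3K4me3 alone in Sox13lo for 83. For regions with H3K27me3 only in Sox13hi or only in Sox13lo, the neighbour held H3K27me3 in 32.3% and 45.0%. More of these regions lay over 10 kb from H3K4me3 (62.8% and 48.1%), and their share fell with distance too. It was 64.0% and 72.2% within 1 kb, 47.5% and 59.1% over 1 to 10 kb, and 20.3% and 23.9% beyond 10 kb. H3K27me3-only regions far from H3K4me3 were slightly narrower, with a median of 500 bp beyond 10 kb and 550 bp in both nearer classes. Their median percentiles were 67.1 in Sox13hi and 48.0 in Sox13lo, against 76.5 and 52.8 within 1 kb.

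**Figure D3:**
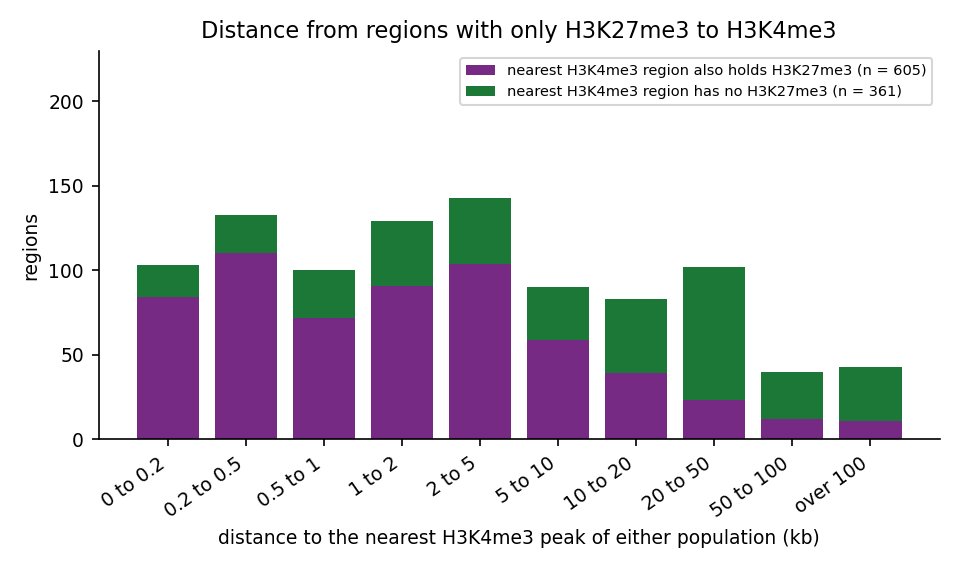
Number of H3K27me3-only regions (bars, stacked) by distance in kb to the nearest H3K4me3 peak of either population, in classes of unequal width. Purple marks regions whose nearest H3K4me3 region also holds H3K27me3 (605) and green all others, and purple makes up 79.2% of the regions within 1 kb and 31.7% of those beyond 10 kb.

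The boundary of the rule runs through some of these sites. Touching an H3K4me3 peak without sharing a base were 16 regions, with a median width of 475 bp and median percentiles of 69.6 and 45.1. Just outside the rule, 8 regions with H3K27me3 in both populations shared only 50 bp between the marks, with a median width of 850 bp and percentiles of 70.7 and 40.7. By the order of position, the first of the touching regions were chr1:74928601-74928749, chr1:137406201-137406599 and chr1:193007901-193008449, with widths of 150, 400 and 550 bp. The regions farthest from H3K4me3 were chr11:92960851-92961249 at 784800 bp, chr18:86882151-86882649 at 596600 bp and chr3:133902301-133902849 at 589300 bp. Their nearest SOX13 peaks were 202750, 265000 and 253750 bp away. All 3 had no other H3K27me3-only region within 20 kb.

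Some H3K27me3-only regions lay in runs, and 551 of the 966 stood alone. A run was defined as neighbouring H3K27me3-only regions no more than 20 kb apart, edge to edge. Of the 966 regions 415 (43.0%, 39.8 to 46.2%) lay in 163 runs, of which 107 had 2 members, 40 had 3, 7 had 4, 7 had 5, 1 had 8 and 1 had 10. The intervals in this paragraph count every region as independent, although members of a run share that status by definition. Within 20 kb of 885 regions (91.6%, 89.7 to 93.3%) there was another region with H3K27me3, of any state. That share was 74.7% for regions with both marks in both populations, 47.3% for regions with H3K27me3 only in Sox13hi and 67.8% for those only in Sox13lo. A region with both marks in both populations lay within 20 kb of 447 H3K27me3-only regions (46.3%). No other histone region of any kind lay within 20 kb of 52 (5.38%).

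The chromatin between members of a run was mixed, and with a run ended by any region with H3K4me3 the share in runs was 26.4%. Of the 252 gaps inside runs, 91 held no histone region, 53 held H3K27me3 of 1 population only and 108 held H3K4me3. These gaps contained 132 regions with both marks, in any combination of populations, 281 with H3K27me3 of 1 population only and 26 with H3K4me3 and no H3K27me3. Regions in runs were 550 bp wide at the median and lone regions 500 bp. Their median percentiles were 75.6 and 55.0, against 71.2 and 48.8 for lone regions, Sox13hi first. H3K4me3 was 2200 and 2450 bp away at the median. The share in runs was 58.0% for regions with H3K4me3 over 1 to 10 kb away, 39.6% within 1 kb and 26.9% beyond 10 kb.

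The longest run spanned 66.2 kb at chr2:74513101-74579349 and held 10 H3K27me3-only regions of 250 to 1100 bp, which covered 10.6% of it. Their percentiles ran from 37.8 to 96.6 in Sox13hi and from 31.3 to 92.2 in Sox13lo. Between them lay 5 regions with both marks and 11 with H3K27me3 of 1 population only. The highest-ranking of the 10 was the first, chr2:74513101-74514099, with scores of 106.25 and 88.75. Next came chr2:74549801-74550649, with 88.25 in Sox13hi (rank 747 of the list) and 68.75 in Sox13lo (rank 969). At chr2:74561551-74562049 the peaks of the populations had the same edges, with scores of 33.25 and 34.5. At the far end, chr2:74578551-74579349, the Sox13hi peak covered 800 bp and the Sox13lo peak 200 bp.

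The second run spanned 44.7 kb at chr6:52172151-52216849, with 8 H3K27me3-only regions of 350 to 1650 bp among 5 regions with both marks. Its widest member, chr6:52215201-52216849, scored 105.5 in Sox13hi (96.6) and 25.5 in Sox13lo (54.0). The order differed at chr6:52195901-52196799, with 35.75 (80.5) and 70.5 (87.7). Each of these runs held 1 SOX13 peak, which in both lay on a region with both marks and not on an H3K27me3-only region. The third run was the first by position of 7 with 5 members. It lay at chr1:74928601-74938499, was 9.9 kb long and held no region with both marks. Its 5 regions had percentiles of 44.3 to 82.4 in Sox13hi and 34.0 to 49.5 in Sox13lo.

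**Figure D4:**
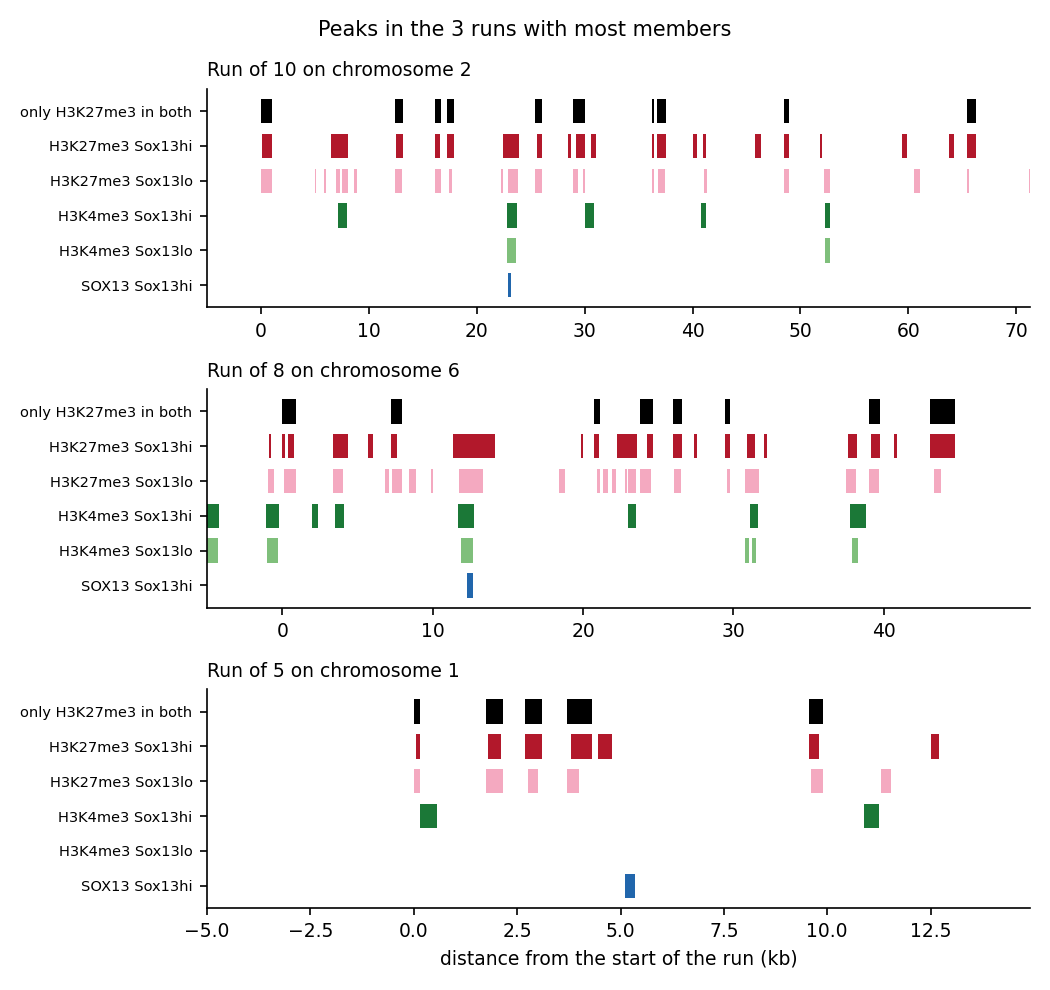
Peaks of the 5 lists and the H3K27me3-only regions (black, top row) in the 3 runs with most members, with distance from the start of the run in kb on the x axis. The runs hold 10, 8 and 5 H3K27me3-only regions, and in the first 2 the SOX13 peak (blue) sits on H3K4me3 and H3K27me3 together.

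SOX13 was not used to choose the regions, so its peaks can be compared between classes. Of the 966 H3K27me3-only regions 28 overlapped a SOX13 peak, 2.90% (95% exact binomial interval 1.93 to 4.16%), below the 6.20% of all histone regions. The share was 13.1% (11.6 to 14.7%) for regions with both marks in both populations, a difference of -10.2 percentage points (-12.1 to -8.21). It was 9.77% (9.22 to 10.3%) with H3K4me3 only in both, a difference of -6.87 points (-7.99 to -5.49). For regions with H3K27me3 only in 1 population it was 1.16% (0.980 to 1.36%), a difference of 1.74 points (0.753 to 3.01). These intervals count every region as independent although neighbours share chromatin, and they cover counting error only. With the top 50% of each histone list, 1235 regions met the rule and 7.04% held SOX13, and the differences were -8.94, -2.56 and 4.54 points in the same order. That cut admits regions whose lower-scoring H3K4me3 peaks were removed. With only the H3K27me3 lists cut to the top 50%, the share was 4.18% and the differences were -9.38, -5.60 and 2.38 points. With the top 50% of SOX13 peaks the share was 1.76%. SOX13 was mapped in Sox13hi cells alone.

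Width moves with class, so the shares were also compared within width classes. At over 500 to 1000 bp SOX13 was on 14 of 397 H3K27me3-only regions (3.53%) and on 54 of 471 regions with both marks (11.5%), a difference of -7.94 points (-11.5 to -4.35). In that class the difference from regions with H3K4me3 only was -5.003 points (-6.83 to -2.53), and that from regions with H3K27me3 in 1 population was 1.43 points with an interval that includes 0 (-1.26 to 4.07). Up to 500 bp the difference from H3K27me3 in 1 population was 0.697 points (-0.315 to 2.33), which also includes 0. That from H3K4me3 only was larger there, at -16.5 points (-20.1 to -13.0), with SOX13 on 9 of 491 regions against 101 of 551. Only 15 regions with both marks were that narrow, and 0 of them held SOX13. The difference from them was 1.83 points (-20.0 to 3.45), an interval too wide to compare these classes at that width. Over 1000 bp, 5 of 78 H3K27me3-only regions held SOX13 (6.41%, 2.11 to 14.3%). There the differences from regions with both marks, at -7.41 points (-12.1 to 0.716), and from H3K4me3 only, at -3.40 points (-7.77 to 4.55), had intervals that include 0. At over 500 to 1000 bp all 3 calls changed in the top 50% of each histone list. The difference from both marks was then -6.87 points (-19.3 to 1.27), that from H3K4me3 only -1.31 points (-3.49 to 1.08), and that from H3K27me3 in 1 population 3.10 points (0.704 to 5.52). With only the H3K27me3 lists cut no call changed, at -7.61 (-11.8 to -3.22), -4.72 (-6.92 to -1.46) and 1.55 points (-1.23 to 4.92). Per Mb covered, H3K27me3-only regions held 49.1 SOX13 peaks over 0.571 Mb, regions with H3K27me3 in 1 population 45.6 over 3.16 Mb, and regions with both marks 93.3 over 2.59 Mb. Split by population, regions with H3K27me3 only in Sox13hi held 44.1 per Mb and those only in Sox13lo 51.8. Regions with H3K4me3 only in both held 84.6 per Mb and all histone regions 96.2.

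**Figure D5:**
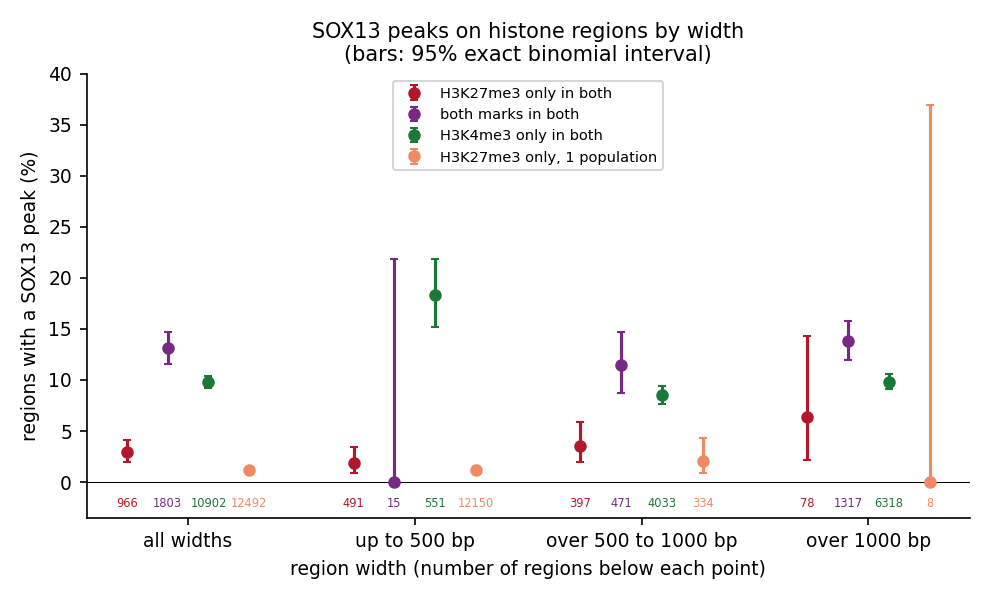
Share of regions with a SOX13 peak (%, points) with 95% exact binomial intervals (bars) for 4 classes of region, over all widths and in 3 width classes, with the number of regions below each point. H3K27me3-only regions (red) lie below both classes with H3K4me3 at over 500 to 1000 bp, where they reach 3.53%, and the intervals are wide where a class holds 8 or 15 regions.

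Around the regions the picture was closer to the background. A SOX13 peak lay within 5 kb of 143 H3K27me3-only regions, 14.8% (12.6 to 17.2%), against 14.9% of all histone regions. The difference from regions with both marks in both was -7.44 points (-10.4 to -4.38), and that from regions with H3K27me3 in 1 population 4.91 points (2.66 to 7.36). From regions with H3K4me3 only in both it was -2.42 points (-4.72 to 0.0767), an interval that includes 0. Within width classes these differences did not all hold. Up to 500 bp the difference from H3K27me3 in 1 population was 5.38 points (2.28 to 8.89), but at over 500 to 1000 bp it was -3.72 points (-9.21 to 1.68). The difference from both marks was -8.09 points (-13.2 to -2.88) at over 500 to 1000 bp and -2.11 points (-10.8 to 8.77) over 1000 bp. From H3K4me3 only it was -12.5 points (-17.5 to -7.44) up to 500 bp. At over 500 to 1000 bp that difference was -2.79 points (-6.19 to 1.12), and over 1000 bp 3.50 points (-4.87 to 14.2). In 115 of the 143 the SOX13 peak did not touch the region itself. The nearest SOX13 peak then lay on a region with both marks, in any combination of populations, in 53 cases, on no histone region in 44, on H3K27me3 of 1 population in 14 and on H3K4me3 without H3K27me3 in 4. The median distance to a SOX13 peak was 33225 bp (29150 to 37650).

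The 28 SOX13 peaks on H3K27me3-only regions were of ordinary rank. Their scores ran from 3 to 15.75, with a median of 8.75, which is a median percentile of 67.2 in the SOX13 list and a highest of 92.8. On regions with both marks the median percentile was 76.9. Wholly inside the region were 18 of the peaks, and 10 crossed 1 edge. The SOX13 centre was 138 bp from the region's centre at the median and at most 675 bp. Regions with SOX13 had a median width of 650 bp (500 to 850) and those without 500 bp (500 to 550). Their median H3K27me3 percentile was 84.0 (75.9 to 89.8) against 73.2 (71.2 to 74.6) in Sox13hi, and 69.6 (52.4 to 82.7) against 51.3 (49.5 to 52.8) in Sox13lo. These percentiles were not compared within width classes. For all H3K27me3-only regions of over 500 to 1000 bp the medians were 80.5 in Sox13hi and 61.6 in Sox13lo. SOX13 was found on 2.98% of regions within 1 kb of H3K4me3, 2.76% at over 1 to 10 kb and 2.99% beyond 10 kb, with overlapping intervals. It was on 2.41% (1.16 to 4.39%) of regions in runs and 3.27% (1.95 to 5.11%) of lone ones.

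The highest SOX13 score on an H3K27me3-only region, 15.75 (percentile 92.8), was at chr10:126964451-126965999, which also ranked second by H3K27me3. The next was 15.25 (92.2) at chr8:87457801-87458549, with H3K27me3 scores of 55.75 in Sox13hi and 58.5 in Sox13lo and H3K4me3 1250 bp away. A SOX13 score of 14 (90.3) was found at chr4:126411801-126412299, which lay 50 bp from H3K4me3. At chr1:72871101-72871799 the SOX13 score was 13 (88.3), the H3K27me3 percentiles were 89.7 and 83.8, and the nearest H3K4me3 was 112500 bp away. The fifth, chr11:95505901-95506299, had a SOX13 score of 12 (85.7). Its H3K27me3 ranked low in Sox13hi (percentile 29.4) and near the middle of the list in Sox13lo (52.4).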

How the data were processed

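The 5 ChIP-seq peak lists were used as deposited, with 1 score per peak. The authors' score has no definition in the sources used here, and neither have the aligner, peak caller, thresholds and control. Positions refer to mm9, a build named in the submitters' processing notes. An input library is listed in the labels and was not analysed here. All deposited starts are multiples of 50 bp and all ends fall 1 bp before one, and widths include that last base. Printed starts are the deposited ones plus 1, printed ends are unchanged, and distances are the bases between edges. Touching peaks were not merged. Shares carry 95% exact (Clopper-Pearson) intervals, differences of shares a Newcombe-type interval built from them, and medians a binomial order-statistic interval.

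The class of regions and all lists were chosen with earlier results of these data known. Named regions are the 10 with the highest mean percentile, the 5 widest, the 3 runs with most members, the 5 with SOX13 of the highest SOX13 score, the 3 nearest to and the 3 farthest from H3K4me3, and the 3 with the largest percentile gap in each direction, with ties by position. Planned comparisons with gene lists and markers need gene positions on mm9 and were not carried out, and no sequence is shown for the same reason.

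Python 3.11.15, NumPy 2.4.6, SciPy 1.17.1 and matplotlib 3.10.9 were used. The code was tested on simulated data, and its 37017 regions, 966 H3K27me3-only regions and their distances equalled those of bedtools 2.31.1.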

Additional observations from a re-analysis of the deposited data

Results flagged for a closer look

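Outside chromosomes 1 to 19, chromosome Y held 11 regions with only H3K27me3 in both populations, among 46 with H3K27me3 in both (23.9%, 95% exact binomial interval 12.6 to 38.8%). That interval includes the share of 29.5% over chromosomes 1 to 19. These regions entered no comparison, and they were flagged because their number is above 3, the limit set for a count of 0. That limit is not an expected count for this chromosome. Chromosome X held 3 such regions among 17 (17.6%, 3.8 to 43.4%), which is not above that limit.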

How the results depend on the processing

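No paired analysis was possible because there is a single library for every mark and population, which also leaves no replicate to leave out. Merging touching peaks and asking for an overlap of at least 50% of the narrower H3K27me3 peaks were chosen after seeing the data, and gave 975 and 865 regions in place of 966. Across 18 alternatives 151 values were recomputed. Of these, 45 moved outside the interval of the main result, or for a count beyond a set ratio, and 106 did not. No recomputed difference in SOX13 share changed sign, and the other values could not. The SOX13 share stayed below that of regions with both marks in both populations, with an interval without 0, in all 11 settings run for it, the values above included. It stayed above that of regions with H3K27me3 in 1 population in the same way, over all widths. At over 500 to 1000 bp, in the top 50% of each histone list, the differences from both marks (-6.87 points) and from H3K4me3 only (-1.31) had intervals that include 0, and that from H3K27me3 in 1 population (3.10) had one without 0. With peaks within 1 kb merged the median width was 850 bp, the median percentiles were 68.5 in Sox13hi and 47.6 in Sox13lo, 28.1% of 695 regions were in runs, H3K4me3 was 9800 bp away at the median and SOX13 was within 5 kb of 12.5%. In the top 50% of each histone list there were 1235 regions, since cutting H3K4me3 frees regions of that mark. Their median width was 750 bp, H3K4me3 was 30000 bp away at the median, 7.04% held SOX13 and 18.3% had it within 5 kb. The SOX13 differences there were -2.56 points from H3K4me3 only in both and 4.54 from H3K27me3 in 1 population. With only the H3K27me3 lists cut to the top 50%, 431 regions were left. Their median width was 700 bp, their percentiles within the cut lists were 61.4 and 36.4, 35.5% were in runs, H3K4me3 was 1850 bp away and 4.18% held SOX13. Without the regions that had H3K4me3 within 1 kb, 630 were left, with a Sox13hi percentile of 71.6, 37.0% in runs and H3K4me3 at 6600 bp, a distance raised by construction. The top 50% of SOX13 peaks were on 1.76% of regions and within 5 kb of 10.4%. All SOX13 peaks were within 1 kb of 5.90% and within 20 kb of 37.7%. The share in runs was 27.4% at 5 kb, 34.6% at 10 kb and 48.9% at 50 kb, and 26.4% where any H3K4me3 peak ended a run. Distances to the Sox13hi and Sox13lo H3K4me3 lists alone had medians of 3650 and 4275 bp. With the lists of each mark at equal length (18471 and 7395 peaks) there were 770 regions, with a median width of 600 bp and percentiles of 56.0 and 54.0. Planned comparisons with gene lists and markers were not run.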

Other observations

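The H3K27me3-only regions were spread over all 19 autosomes. Their number ran from 19 on chromosome 18 to 105 on chromosome 2, followed by 92 on chromosome 11 and 89 on chromosome 7. As a share of the regions with H3K27me3 in both populations they ran from 21.3% (30 of 141, 14.8 to 29.0%) on chromosome 17 to 34.3% (49 of 143, 26.5 to 42.7%) on chromosome 13. The share over all autosomes was 29.5%.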
